A study of Mus musculus with 6 samples.

Results

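The cytosolic ribosomal protein genes of the mouse were followed in the lumbar spinal cord of SOD1G93A mice, a transgenic model of amyotrophic lateral sclerosis that carries a mutant superoxide dismutase 1. The members were the gene names that begin Rpl or Rps with a protein number, together with Rplp0, Rplp1, Rplp2 and Rpsa, and without pseudogene names ending in -ps, Rps6k kinases or Gm names. The table of 28162 genes held 89 such names, and 81 of them had a mean over the 6 libraries of at least 10 normalized counts, that is, reads per gene divided by a size factor for the library. They were 45 large-subunit genes, 33 small-subunit genes and 3 stalk genes. All 81 also passed the filter of the test, which required 10 or more normalized counts in 3 or more libraries and kept 17480 genes.

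Both groups carried the SOD1G93A transgene and had received an adeno-associated virus (AAV) by the intrathecal route at postnatal day 74, and were sampled at day 104. The AAV-NDNF mice received a virus for neuron-derived neurotrophic factor, a secreted glycoprotein, and the AAV-GFP mice received a virus for green fluorescent protein. Each group held 3 libraries of polyadenylated RNA from the ventral part of the cord, labelled as biological replicates. Sex, the promoter in the virus and mice without the transgene were not analysed here, so the values cannot be set against a healthy cord.

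The ribosome is built of a large and a small subunit, each a scaffold of ribosomal RNA dressed with proteins that are mostly needed in equal numbers. In mammals most of these messenger RNAs are short and abundant and begin with a tract of pyrimidines, the 5′ terminal oligopyrimidine or TOP motif. Through that tract their translation is coupled to nutrient and growth signals by mTORC1 and the RNA-binding protein LARP1, so that translation of the family can change without a change in messenger level. In neurons, ribosomal protein messengers are also carried into axons and dendrites.

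The sequence around the start of transcription is shown for 7 members because the family is known for the pyrimidine tract there, and because the 2 paralogs listed last hold neither stretch searched for. Each line gives the 60 bases before and the 20 bases from the start annotated by RefSeq on GRCm38.p6 (mm10), 5′ to 3′ on the strand of the gene. Capitals mark matches to 4 short motifs: the pyrimidine stretches CTCTTT and CTTTCC, searched on the strand of the gene, and CCGGAAG and TCTCGCGA, searched on both strands. These letters were chosen after the windows of the members had been seen.
Rps6, chr4:86857348-86857427, minus strand: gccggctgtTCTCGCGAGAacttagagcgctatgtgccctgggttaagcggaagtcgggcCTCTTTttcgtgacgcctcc
Rpl38, chr11:114668520-114668599, plus strand: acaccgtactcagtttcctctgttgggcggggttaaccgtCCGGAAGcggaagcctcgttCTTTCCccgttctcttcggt
Rpl5, chr5:107900468-107900547, plus strand: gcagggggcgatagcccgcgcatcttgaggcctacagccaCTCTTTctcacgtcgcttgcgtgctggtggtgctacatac
Rps26, chr10:128626487-128626566, minus strand: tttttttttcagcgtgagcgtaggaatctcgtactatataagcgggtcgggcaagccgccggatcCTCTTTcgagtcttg
Rps27, chr3:90213629-90213708, minus strand: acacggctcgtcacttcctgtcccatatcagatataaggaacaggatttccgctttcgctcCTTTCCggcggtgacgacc
Rps27l, chr9:66946026-66946105, plus strand: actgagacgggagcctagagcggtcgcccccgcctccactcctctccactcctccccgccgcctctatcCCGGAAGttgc
Rpl7l1, chr17:46782637-46782716, minus strand: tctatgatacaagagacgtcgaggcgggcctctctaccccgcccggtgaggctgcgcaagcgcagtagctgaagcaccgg

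The marked pyrimidine stretch began at the annotated start in Rps6 and Rpl38 and 1 base after it in Rps27. In Rpl5 it began 20 bases before the start. In Rps6, Rpl38 and Rps27 the base before the match is also a pyrimidine, so these are positions of the match and not of a whole tract. Rps27, with a marked stretch, and its paralog Rps27l, without either stretch, differ in these letters although their proteins are close relatives. Over windows from 100 bases before to 50 after the first listed start, CTCTTT was held by 35% of the 60 members with a window and by 5.79% of all 27025 windows, or 4.69% of those of tested genes. CTTTCC was held by 31.7% of the members, 6.82% of all windows and 6.47% of those of tested genes, and it overlapped CTCTTT in 8 members. At least 1 of the 2 stretches was held by 30 of the 60 members (50%), against 11.5% of all windows and 10.1% of those of tested genes. CCGGAAG, the core of sites for ETS factors, was held by 30% of members, 6.89% of all windows and 12.4% of the 12419 windows of tested genes, and in no member did CTTTCC overlap it. TCTCGCGA was held by 15% of members, 0.814% of all windows and 1.55% of those of tested genes, and in Rps6 its matches on the 2 strands overlap. A match describes letters and not a bound site, and a start listed away from the true one would move the tract.

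Ndnf itself stood at 5286, 7077 and 673.7 normalized counts in AAV-NDNF libraries 1, 2 and 3, against 171.4, 128.0 and 158.1 in the AAV-GFP libraries. The third AAV-NDNF library was thus the lowest of its group for the delivered gene, though above every control. The libraries held between 15335789 and 20060987 reads in genes, the deepest being AAV-NDNF replicate 1. Markers of the labelled tissue were present: the motor neuron list of Chat, Slc5a7, Isl1 and Mnx1 summed to between 3438 and 4140 normalized counts after AAV-NDNF and between 3314 and 4002 after AAV-GFP. The sum over 6 dorsal horn genes was 937, 1337 and 1744 after AAV-NDNF and 1846, 473 and 2029 after AAV-GFP, so AAV-GFP replicate 2 was low. Lymphocyte markers summed to at most 25.2 after AAV-NDNF and at most 51.8 after AAV-GFP. The labels do not tie each library to its own animal beyond the word biological, so p-values measure the spread between these libraries.

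Ribosomal protein genes took 0.894%, 1.09% and 1.49% of the reads in AAV-NDNF libraries 1, 2 and 3, against 1.32%, 1.03% and 1.25% in AAV-GFP libraries 1, 2 and 3. The controls lay inside the range of the AAV-NDNF libraries, whose replicate 3 held 1.66 times the share of replicate 1. The mean share was 1.16% ± 0.302 after AAV-NDNF and 1.201% ± 0.153 after AAV-GFP (SD, n = 3 each; two-sided exact permutation test, p = 1, with 0.1 the smallest p that 3 against 3 allows). In bulk tissue, fewer cells of a type and less RNA per cell cannot be told apart.

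**Figure D1:**
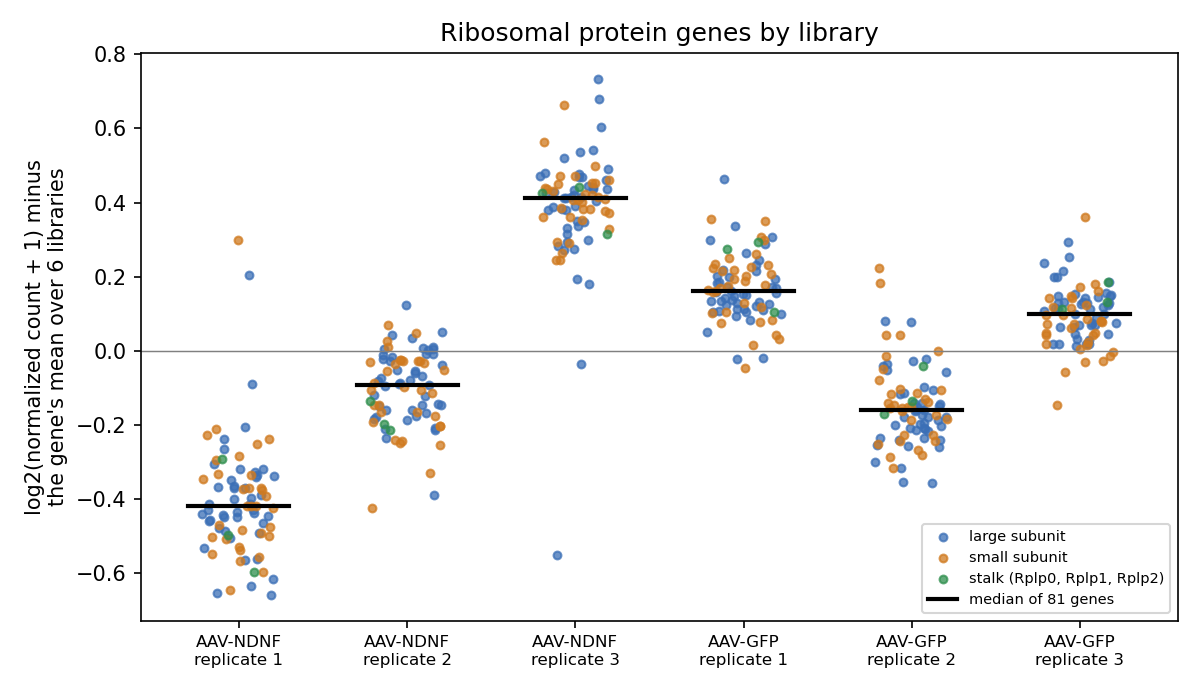
Log2 normalized count of each ribosomal protein gene minus that gene's mean over the 6 libraries, by library, with the AAV-NDNF libraries left of the AAV-GFP libraries. The median member lay at −0.42 in AAV-NDNF replicate 1 and at 0.41 in AAV-NDNF replicate 3, with the 3 controls between −0.16 and 0.16.

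Per kilobase of the shortest principal transcript, the members spanned a median of 2954 normalized counts, with the 10th percentile at 602 and the 90th at 5573. Rps6, the small-subunit protein that S6 kinases phosphorylate, was the highest at 7112 per kilobase. Rpl23a, which sits at the exit of the peptide tunnel, followed at 6795 per kilobase, and Rps12 of the small subunit at 6587 per kilobase. At the other end were Rpl3l at 7.53, Rpl13a at 101.5 and Rpl22l1 at 264.8 per kilobase. Transcript lengths ran from 271 to 3706 nucleotides with a median of 751. Rps20 has the 3706-nucleotide transcript, and its 290.0 per kilobase rests on that annotated length.

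**Figure D2:**
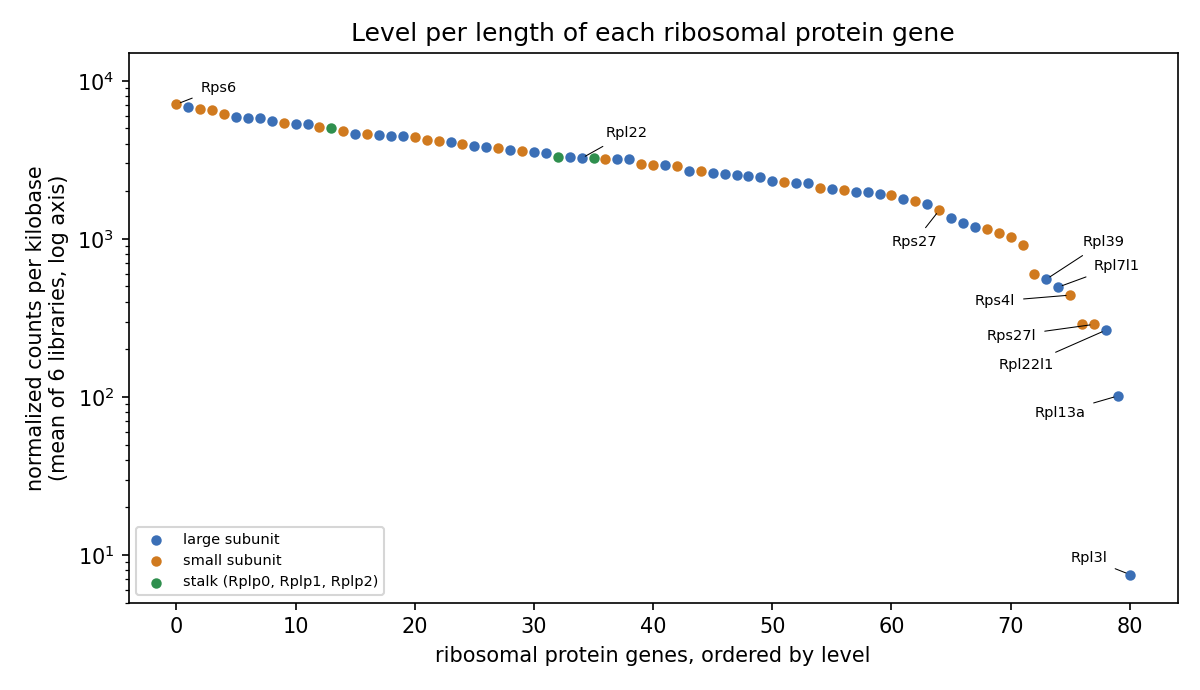
Mean normalized count per kilobase over the 6 libraries for each of the 81 genes, ordered from high to low on a log axis and coloured by subunit. From the 10th to the 90th percentile the genes run from 602 to 5573 per kilobase, and Rpl3l lies furthest below at 7.53 per kilobase.

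Paralogs were read at lower levels per length than their partners. Rpl3l, the striated muscle form of Rpl3, had 11.8, 9.01 and 6.57 normalized counts after AAV-NDNF and 14.3, 9.77 and 10.7 after AAV-GFP, where Rpl3 had 5919, 7052 and 8586 after AAV-NDNF and 8073, 5960 and 7490 after AAV-GFP. Per kilobase that was 7.53 for Rpl3l and 5315 for Rpl3. A mean of 10.3 made Rpl3l the member just inside the limit of 10. Rpl22l1, the paralog of Rpl22, had 114, 124 and 199 normalized counts after AAV-NDNF and 167, 128 and 145 after AAV-GFP, and its level per kilobase was 264.8 where that of Rpl22 was 3237. Rps27l, a p53 target in human cells, had 92.5, 125 and 181 normalized counts after AAV-NDNF and 162, 164 and 138 after AAV-GFP. It stood at 287.8 per kilobase and Rps27 at 1516 per kilobase. In each of these 3 paralogs the groups overlapped.

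The 8 names below the limit were Rpl36al, just outside it with a mean of 7.19, then Rpl24 at 5.90, Rpl6l at 4.0, Rps3a2 at 3.98, Rps3a3 at 3.89, Rps12l1 at 2.03, Rpl32l at 0.65 and Rpl39l at 0.47. Of these, 5 are annotated as processed pseudogenes in GENCODE M21. Rpl24 encodes a large-subunit protein, and its row read 0.84, 1.13 and 5.48 normalized counts after AAV-NDNF and 7.14, 5.86 and 15.0 after AAV-GFP. Of its exon bases, 71.5% lie under the annotated gene Gm28037 on the same strand, and 80.1% of its 100-base stretches recur in other genes. Rpl36al has 63.1% of its exon bases under Gm49383, and Rpl13a has 59.3% under Gm45713. Rps10 has 91.6% under RPS10-NUDT3 and was nevertheless read at 5426 per kilobase. How the counting treated such overlaps is not given in the sources used here, and their part in these levels was not tested.

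No ribosomal protein gene passed the test between the groups. Limma called 0 of the 81 members at an adjusted p under 0.05, where it called 0.0% of all 17480 genes, and the smallest adjusted p among members was 0.997. At an unadjusted p under 0.05 it found 0 members, where 4.68% of all genes passed. EdgeR's quasi-likelihood test on recovered reads also called 0 members (0.0% of all genes), and DESeq2 called 0 members where it called 0.315% of all genes; neither found a member with an unadjusted p under 0.05. The authors' deposited table gave 0 members an adjusted p under 0.05, against 0.266% of its 20315 genes with an adjusted p, and its smallest unadjusted p for a member was 0.110. The standard errors had a median of 0.19 on the log2 scale, and 73 of the 81 fold changes were smaller than their own standard error.

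The estimates leaned below 0 without passing the test. The log2 fold change, given as AAV-NDNF minus AAV-GFP with a pseudocount of 1, was above 0 in 14 members and below 0 in 67, whereas 50.1% of all genes tested lay above 0. Its median was −0.07 over the members and 0.00 over all genes tested, and it ranged from −0.33 for Rpl3l to 0.13 for Rps4l. The lean depended on single libraries. Without AAV-NDNF replicate 1, 70 members lay above 0 with a median of 0.13. Without AAV-NDNF replicate 3, 80 members lay below 0, the exception being Rps4l, with a median of −0.29. Then 34 members had an unadjusted p under 0.05, all lower after AAV-NDNF, where 4.45% of all genes passed in that direction, and the smallest adjusted p of a member was 0.277. Leaving out AAV-GFP replicate 1 put 43 members above 0, leaving out AAV-GFP replicate 2 put 2 there, leaving out AAV-GFP replicate 3 put 31 there, and leaving out AAV-NDNF replicate 2 put 23 there. With edgeR 22 members lay above 0 and with DESeq2 27.

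**Figure D3:**
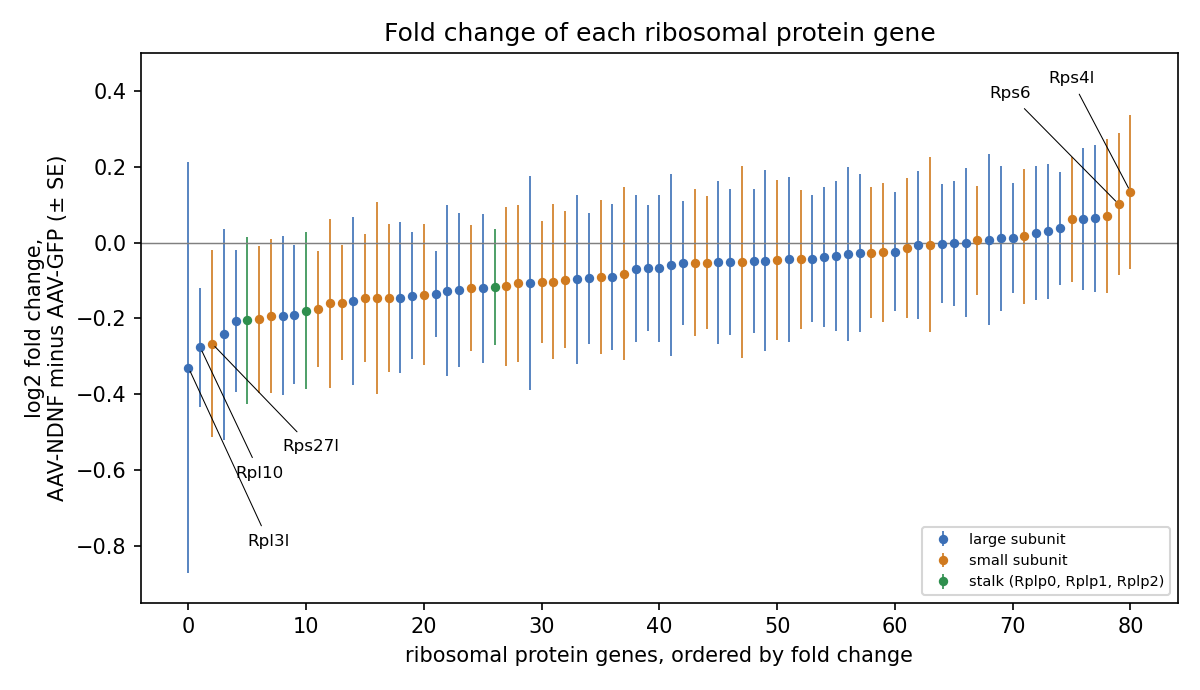
Log2 fold change, AAV-NDNF minus AAV-GFP, with its standard error from limma for each of the 81 genes, ordered from low to high and coloured by subunit. The estimates run from −0.33 to 0.13 and 14 of them lie above 0.

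Among the large-subunit genes 8 of 45 fold changes lay above 0, with a median of −0.05. Rpl10, which is fitted late into the large subunit near the sites that hold transfer RNA, had the smallest p of any member. It had 2077, 2490 and 3170 normalized counts after AAV-NDNF and 3529, 2742 and 3012 after AAV-GFP. The groups overlapped, since AAV-NDNF replicate 3 exceeded 2 of the controls. The fold change was −0.28 with a standard error of 0.16 (limma, p = 0.107, adjusted p = 0.997), and the authors' deposited table gave it as −0.26. Without AAV-NDNF replicate 3 the estimate for Rpl10 was −0.44, and without AAV-NDNF replicate 1 it was −0.13. Rpl10a, reported in mouse cells to mark ribosomes that favour some messengers, had 1636, 1966 and 2967 normalized counts after AAV-NDNF and 2701, 2200 and 2472 after AAV-GFP. Here the third AAV-NDNF library was above all controls and the other two below all of them.

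Rpl7l1, a nucleolar relative of Rpl7, was the only member whose groups did not overlap in the deposited scale. It had 609, 614 and 632 normalized counts after AAV-NDNF and 639, 684 and 718 after AAV-GFP. The fold change was −0.14 with a standard error of 0.11 (limma, adjusted p = 0.997), and 5.5% of all genes tested were lower after AAV-NDNF without overlap. No member was higher without overlap, where 4.26% of all genes were. Rpl5 and Rpl11, which join 5S ribosomal RNA and can bind the p53 regulator Mdm2, had fold changes of −0.02 and 0.00, each far inside its standard error. Rpl11 averaged 2146 ± 665 normalized counts after AAV-NDNF and 2098 ± 311 after AAV-GFP (SD, n = 3 each). Rpl5 averaged 4049 ± 847 normalized counts after AAV-NDNF and 4077 ± 501 after AAV-GFP (SD, n = 3 each).

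Rpl38, whose loss in mice disturbs translation of Hox messengers, spread most of all members. It had 284, 382 and 748 normalized counts after AAV-NDNF and 443, 432 and 530 after AAV-GFP, so that AAV-NDNF replicate 3 held 2.63 times the count of AAV-NDNF replicate 1. Rpl39 of the peptide exit tunnel followed with a ratio of 2.53 between the same libraries. It had 207, 249 and 523 normalized counts after AAV-NDNF and 356, 345 and 363 after AAV-GFP. In both genes the controls lay inside the AAV-NDNF range. Rpl41, which encodes a very small basic protein, had 1680, 2178 and 3557 normalized counts after AAV-NDNF and 2714, 2292 and 2883 after AAV-GFP, again with all controls inside that range.

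Among the small-subunit genes 6 of 33 fold changes lay above 0, with a median of −0.09. Rps6 had 4747, 6442 and 8386 normalized counts after AAV-NDNF and 6205, 5029 and 6657 after AAV-GFP. Its fold change was 0.10 with a standard error of 0.19 (limma, adjusted p = 0.997), and it turned to −0.10 without AAV-NDNF replicate 3 and −0.02 without AAV-GFP replicate 2. Rpsa, also known as the laminin receptor precursor, had 5950, 7346 and 9492 normalized counts after AAV-NDNF and 7848, 6170 and 7544 after AAV-GFP. Rps19, the gene most often mutated in human Diamond-Blackfan anaemia, had 501, 534 and 831 normalized counts after AAV-NDNF and 812, 588 and 631 after AAV-GFP. In all 3 genes the controls lay within the span of the AAV-NDNF libraries. Rps26, which is mutated in some human families with the same anaemia, and Rps25, reported on part of the ribosomes of mouse embryonic stem cells, each had a fold change of −0.01. Rps16 was the small-subunit gene with the smallest p, with 1040, 1072 and 1520 normalized counts after AAV-NDNF and 1508, 1305 and 1241 after AAV-GFP (limma, adjusted p = 0.997).

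Rps4l, on chromosome 6 and annotated in GENCODE M21 as a transcribed processed pseudogene, had the highest fold change of the members, 0.13 with a standard error of 0.20. It had 421, 255 and 429 normalized counts after AAV-NDNF and 367, 307 and 309 after AAV-GFP. Its lowest library was AAV-NDNF replicate 2, and without that library its fold change was 0.38. It was then the 1 member with an unadjusted p under 0.05, where 0.589% of all genes passed in that direction, and the smallest adjusted p of a member was 0.9998 by limma. Its X-linked parent Rps4x had 2864, 3338 and 4422 normalized counts after AAV-NDNF and 4227, 3253 and 3815 after AAV-GFP.

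The 3 stalk genes encode the flexible arm that recruits the elongation factor GTPases, and all 3 fold changes lay below 0. Rplp0, the base of the stalk, had 3642, 3893 and 5550 normalized counts after AAV-NDNF and 4797, 4338 and 4825 after AAV-GFP. Rplp1 had 1614, 2224 and 3283 normalized counts after AAV-NDNF and 2995, 2170 and 2777 after AAV-GFP. Rplp2 had 940, 1145 and 1804 normalized counts after AAV-NDNF and 1608, 1208 and 1455 after AAV-GFP. The controls of all 3 lay inside the AAV-NDNF range, and their adjusted p was 0.997 by limma in each.

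What these genes shared was their order across libraries. AAV-NDNF replicate 1 was the lowest of the 6 libraries in 74 members, against 17.7% of all genes tested. AAV-NDNF replicate 3 was the highest in 78, against 26.4% of all genes tested. Both held in 72 of 81 members, against 9.45% of all genes tested and 12.6% of the 6952 other genes in the middle range of the members' levels, from 428 to 4507 normalized counts. The 9 exceptions were Rpl10, Rpl17, Rpl22, Rpl3l, Rpl7l1, Rps15a, Rps18, Rps28 and Rps4l. In 77 members AAV-GFP replicate 2 was the lowest control, a share that was not computed over all genes. In 75 members all controls lay inside the AAV-NDNF range, against 28.5% of all genes tested. AAV-NDNF replicate 3 over replicate 1 gave a median ratio of 1.79, from 0.558 in Rpl3l to 2.63 in Rpl38, and 80 of 81 members were above 1. In the 6952 other genes of the same level range, the median log2 difference between these libraries was −0.01. The spread followed: the median SD of a member was 0.43 on the log2 scale among AAV-NDNF libraries and 0.18 among AAV-GFP libraries, against 0.23 and 0.17 over all genes tested.

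Around this common shift most members lay close to the median member. With each library set to its median ribosomal protein gene, the residual spread of a member over the 6 libraries had a median of 0.08 on the log2 scale, and in 53 members it was under 0.1. It exceeded 0.2 in 6, namely Rpl3l, Rps4l, Rpl7l1, Rpl39, Rps28 and Rpl38. Setting the libraries to the median of the members themselves makes their residuals smaller by construction. No other gene list was measured in this way. On this scale, added after the data were seen, which by its construction puts the members around 0, the smallest adjusted p was 0.9999 by limma. Rpl10, Rpl10a and Rpl18 were then lower after AAV-NDNF without overlap, where 1.62% of all genes were, and members higher without overlap included Rpl26, Rpl8, Rps6 and Rpsa, where 2.95% of all genes were. Relative to the median member, Rpl10 stood at −0.01, −0.08 and −0.23 in the AAV-NDNF libraries and at 0.17, 0.13 and 0.01 in the AAV-GFP libraries. Rps6 stood at 0.05, 0.16 and 0.04 in the AAV-NDNF libraries and at −0.15, −0.13 and 0.02 in the AAV-GFP libraries. Neither passed limma on this scale.

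Other genes with short transcripts were also higher, in the median, in AAV-NDNF replicate 3 than in replicate 1, but most did not have the order of the family over all 6 libraries. Between AAV-NDNF replicates 3 and 1, the median log2 difference of protein-coding genes outside the family was 0.48 for transcripts under 500 nucleotides, 0.62 from 500 to under 700, 0.54 from 700 to under 1000, 0.29 from 1000 to under 2000, 0.03 from 2000 to under 4000 and −0.27 from 4000 on. In the same order of length the ribosomal protein genes had 0.96, 0.84, 0.82 and 0.67, with too few of them from 2000 nucleotides on for a median. They lay above the other genes in each of the 4 bins. In that order of length, AAV-NDNF replicate 1 was the lowest and replicate 3 the highest library in 88.9%, 90.5%, 87.0% and 88.2% of ribosomal protein genes and in 29.7%, 40.1%, 30.5% and 19.2% of the other genes. These medians compare 2 libraries and are a description, and the part of transcript length in the shift was not tested.

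**Figure D4:**
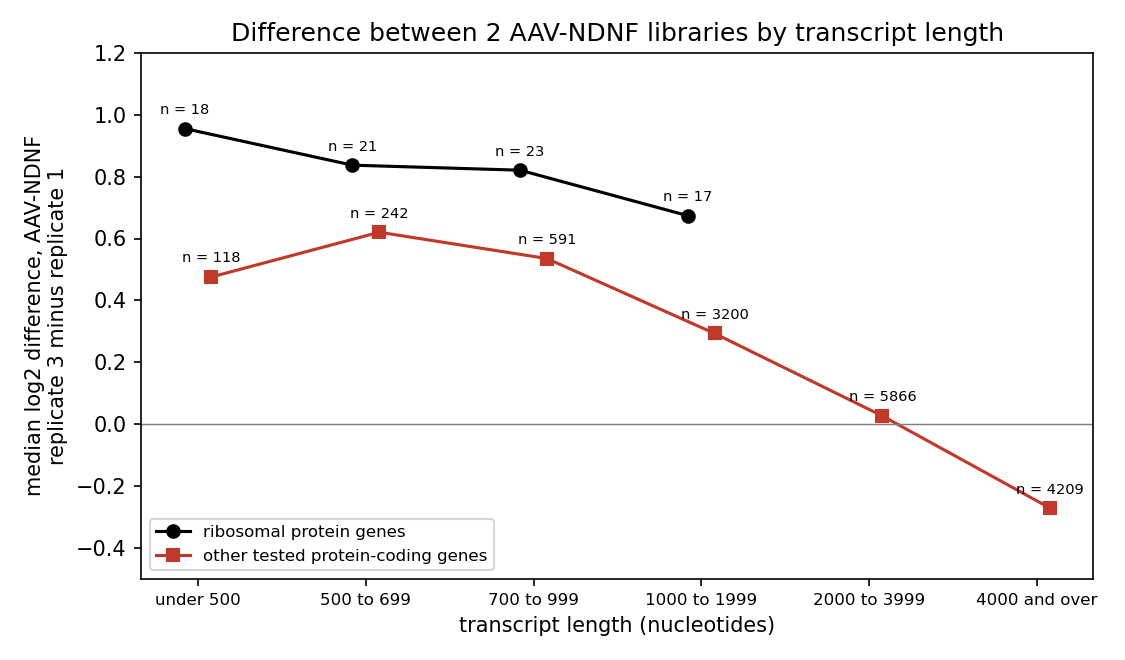
Median log2 difference between AAV-NDNF replicate 3 and AAV-NDNF replicate 1 by transcript length, for ribosomal protein genes and for other tested protein-coding genes, with the number of genes at each point. Ribosomal protein genes go from 0.96 in the shortest bin to 0.67 at 1000 to under 2000 nucleotides, and the other genes end at −0.27.

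Other measures also differed between libraries, and not all in the order of the ribosomal protein genes. Mitochondrially encoded genes took 5.54%, 7.66% and 7.94% of reads in AAV-NDNF libraries 1, 2 and 3 and 6.75%, 5.28% and 7.26% in AAV-GFP libraries 1, 2 and 3. Nuclear genes of oxidative phosphorylation, which also have short transcripts, had median deviations of −0.33, −0.02 and 0.46 on the log2 scale in the AAV-NDNF libraries and 0.07, −0.17 and −0.01 in the AAV-GFP libraries, and 48 of 73 had AAV-NDNF replicate 1 lowest and replicate 3 highest. The 4 neuronal markers summed to 47752, 55394 and 59668 normalized counts after AAV-NDNF and 50267, 42030 and 49600 after AAV-GFP, most of it Snap25. They were not uniform. Syt1 had 1222, 1375 and 1413 normalized counts after AAV-NDNF and 1706, 417 and 1834 after AAV-GFP. Rbfox3 had 1999.2, 1849.3 and 1583.9 normalized counts after AAV-NDNF and 1574.8, 1432.7 and 1823.3 after AAV-GFP. Tubb3 was lowest among controls in AAV-GFP replicate 3. The 4 oligodendrocyte markers summed to 488054, 450835 and 485875 after AAV-NDNF and 430448, 605207 and 428918 after AAV-GFP. AAV-GFP replicate 2, the lowest control for ribosomal proteins, had the lowest neuronal sum and the highest oligodendrocyte sum, and among the controls it also had the highest motor neuron sum, 4002 against 3314 and 3405, and the highest astrocyte sum, 195207 against 152334 and 154133. The part of any of these in the shift was not tested.

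**Figure D5:**
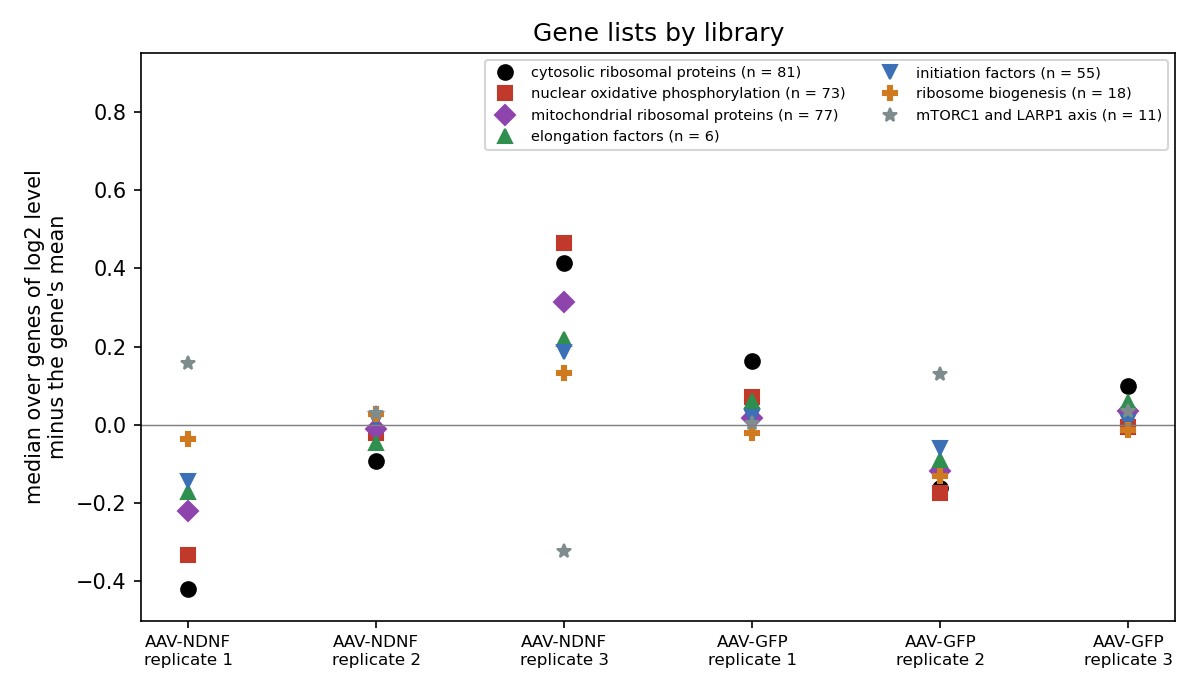
Median over the genes of each of 7 lists (cytosolic and mitochondrial ribosomal proteins, oxidative phosphorylation, elongation factors, initiation factors, ribosome biogenesis, mTORC1 and LARP1) of the log2 level minus the gene's mean over 6 libraries, for each library, AAV-NDNF left of AAV-GFP. Of these 7, cytosolic ribosomal protein and oxidative phosphorylation genes lie furthest apart between AAV-NDNF replicates 1 and 3, and the mTORC1 and LARP1 list lies the other way, at 0.16 in replicate 1 and −0.32 in replicate 3.

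The rest of the translation machinery held no gene past an adjusted p of 0.05 by limma in any list. Fau, which encodes a ribosomal protein fused to a ubiquitin-like protein, had a fold change of −0.11, and Rack1, a scaffold protein of the small subunit, had −0.10. Of 77 mitochondrial ribosomal protein genes 48 lay above 0, with a median of 0.05, and 41 had the same pair of extreme libraries. Of 6 elongation factor genes 4 lay above 0, with a median of 0.02. The initiation factor list took every name of Eif and a number. It therefore also holds the eIF2 kinases, the pseudogene Eif4a-ps4 and the Eif4ebp genes, of which Eif4ebp1 and Eif4ebp2 are also in the mTORC1 and LARP1 list. Of its 55 tested genes 34 lay above 0, and 1 passed an unadjusted p under 0.05 by limma in each direction. These were Eif2ak2, the kinase PKR that responds to double-stranded RNA, at −0.50, and Eif2b3, a subunit of the exchange factor for eIF2, at 0.39. Over all genes 3.53% passed lower and 1.15% passed higher, and no gene of the other translation lists passed either way. The 18 genes of ribosome biogenesis, among them the box C/D proteins Fbl, Nop56 and Nop58, had 15 fold changes above 0 and a median of 0.09, and 2 of the 18 had both extreme libraries of the ribosomal proteins.

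The genes that control TOP messengers had, in the median, the opposite order within the AAV-NDNF group. The 11 genes of the mTORC1 and LARP1 list had median deviations of 0.16, 0.03 and −0.32 on the log2 scale in the AAV-NDNF libraries and 0.00, 0.13 and 0.04 in the AAV-GFP libraries, and 5 of 11 fold changes lay above 0. Other tested protein-coding genes of 4000 nucleotides and over had medians of 0.11, 0.03 and −0.16 in the AAV-NDNF libraries, in the same order. The part of transcript length in the order of this list was not tested. Larp1, which binds the TOP tract, had 3167, 2790 and 2090 normalized counts after AAV-NDNF and 2459, 2901 and 2422 after AAV-GFP. Mtor, the kinase, had 2184, 1979 and 1420 normalized counts after AAV-NDNF and 1662, 1943 and 1649 after AAV-GFP. Both were highest in AAV-NDNF replicate 1 and lowest in AAV-NDNF replicate 3, and both have fold changes well inside their standard errors, 0.03 for Larp1 and 0.07 for Mtor. Rheb went the other way within the AAV-NDNF group, with 1064, 1492 and 1834 normalized counts, and was the 1 listed gene with both extreme libraries of the ribosomal proteins. The list's fold changes furthest from 0 were −0.57 for Eif4ebp1, −0.30 for Rps6kb2 and −0.28 for Eif4ebp2. Their unadjusted p by limma was 0.068, 0.051 and 0.056, and their adjusted p was 0.997. The 9 tested S6 kinase genes had a median fold change of 0.04, with 6 above 0. Among the 60 members with a window, those with CTCTTT or CTTTCC anywhere in it had a median ratio of 1.81 between AAV-NDNF replicates 3 and 1. Those without had 1.73. A match did not have to lie at the start, so these are not sets with and without a TOP tract.

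Near-identical copies limit how far single members can be told apart. Of the 81 genes, 74 share at least one 100-base stretch with another annotated gene, and 35 share at least 50% of theirs. Those 35 had a median of 2954 per kilobase and a median fold change of −0.07, while the 14 that share under 10% had 1410 per kilobase and −0.12. The median ratio between AAV-NDNF replicates 3 and 1 was 1.77 and 1.65 in these sets. The sets differ in more than sharing. The 14 include Rpl3l, Rpl7l1, Rps27l and Rps4l, at 7.53, 496, 288 and 441 per kilobase, and Rps20 at 290. The ratios of the first 4 were 0.558, 1.04, 1.95 and 1.02. Of the low genes, Rpl22l1 at 265 and Rpl13a at 102 per kilobase are among the 35. The part of shared stretches in the shift was not tested. The 160 rows of ribosomal protein pseudogenes ending in -ps summed to 0.491 normalized counts per 100 in the members. Copies with other names, such as the Gm genes that share stretches with Rps2 and Rpl29, are not in that sum.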

How the data were processed

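Tools named in the submitters' processing notes are cutadapt, HISAT2, HTSeq and DESeq2, and the build is mm10. Their versions, annotation and strand settings are not given in the sources used here. Per the file headers and values, the deposited signal per library is a gene read count that the authors divided by 1 size factor. Whole reads were recovered from 100% of values (tolerance 0.001). The authors also deposited the log2 fold change, its standard error, the test score and the p-values of DESeq2, per the file headers.

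Limma 3.58.1 (trend, robust, two-sided; R 4.3.3) was fitted to log2(normalized count + 1) of 17480 genes, with Benjamini-Hochberg adjustment over all of them. The pseudocount of 1 understates changes of low genes. EdgeR 4.0.16 and DESeq2 1.42.0 ran on recovered reads. Other alternatives were scaling, pseudocount, filter, a replicate block and leaving out each library.

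Transcript lengths, overlaps and shared 100-base stretches come from GENCODE M21, and start windows from RefSeq, which held 60 of 81 members. Members and lists were chosen with earlier results of these data known. Named members were the 5 smallest p per direction, paralogs and partners, stalk genes, Rpsa, 9 further genes of known role, 3 per end of the level per kilobase and the members at the limit; other members named were chosen after their values were seen. Some genes that these rules would bring up are not reported here.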

Additional observations from a re-analysis of the deposited data

How the results depend on the processing

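The count of ribosomal protein genes past an adjusted p of 0.05 was 0 under every alternative run, and at an unadjusted p under 0.05 it was 0 except when a library was left out, where it ran from 0 to 34. The number of members with a fold change above 0, 14 as reported, was 22 with edgeR, 27 with DESeq2 and 40 when scaled to the median ribosomal protein gene, a count near the middle that this centring fixes, and ran from 1 to 70 over the 6 libraries left out in turn. The median fold change ran from −0.29 to 0.13 over the same. With the replicate block, 14 members lay above 0 with a median of −0.07, 0 were called, and the whole table had 6 calls, against 0 without it. Same-numbered libraries had deviation correlations of −0.09, 0.05 and 0.08. The labels give them only a shared number, and correlations over so few libraries cannot show whether they were handled together. No filter on low values gave 3 calls in the whole table and DESeq2 55; leaving out AAV-NDNF replicate 1 gave 1, AAV-NDNF replicate 3 gave 11 and AAV-GFP replicate 2 gave 43, none of them members.

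Of the named members' values under other settings, 296 kept their direction and 23 turned; for libraries left out 144 kept it and 48 turned. With upper-quartile scaling the log2 fold changes that turned were 0.0207 for Rpl11, 0.0188 for Rpl3, 0.0074 for Rps25 and 0.0162 for Rps26. With edgeR they were 0.0261 for Rpl11, 0.0005 for Rpl38, 0.0194 for Rps25 and 0.0463 for Rps26. With DESeq2 they were 0.0321 for Rpl11, 0.0021 for Rpl3, 0.0003 for Rpl36a, 0.0086 for Rpl38, 0.0254 for Rps25 and 0.0526 for Rps26. Scaled to the median ribosomal protein gene they were 0.0664 for Rpl11, 0.0365 for Rpl13a, 0.0188 for Rpl22l1, 0.0645 for Rpl3, 0.0226 for Rpl36a, 0.0434 for Rpl5, 0.018 for Rpl7, 0.0531 for Rps25 and 0.0619 for Rps26. Upper-quartile scaling and scaling to the median ribosomal protein gene each move every gene by about the same amount, the median of all genes tested going to 0.02 and 0.07, and the turns under them are of fold changes closer to 0 than that shift. The cause of the turns with edgeR and DESeq2 was not tested. Over the libraries left out in turn, the range was −0.236 to 0.194 for Rpl11, −0.135 to 0.144 for Rpl13a, −0.112 to 0.149 for Rpl22, −0.296 to 0.107 for Rpl22l1, −0.328 to 0.109 for Rpl23a, −0.139 to 0.129 for Rpl3, −0.301 to 0.197 for Rpl36a, −0.4996 to 0.197 for Rpl38, −0.642 to 0.0241 for Rpl39, −0.452 to 0.0887 for Rpl41, −0.172 to 0.134 for Rpl5, −0.127 to 0.264 for Rpl6, −0.253 to 0.171 for Rpl7, −0.304 to 0.0003 for Rplp0, −0.469 to 0.0427 for Rplp1, −0.446 to 0.0241 for Rplp2, −0.355 to 0.122 for Rps12, −0.237 to 0.195 for Rps25, −0.288 to 0.263 for Rps26, −0.41 to 0.139 for Rps27, −0.161 to 0.202 for Rps29, −0.276 to 0.0374 for Rps4x, −0.0989 to 0.312 for Rps6 and −0.113 to 0.224 for Rpsa.

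With 3 libraries a group and a median standard error of 0.19 on the log2 scale, shifts of the size estimated here were not detectable. Rpl3l and the 8 names below the limit rest on few reads.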
